A study of Mus musculus with 24 samples.

Results

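Cited2, its paralogs Cited1 and Cited4, and Crebbp and Ep300, the genes of the coactivators CBP and p300, were followed in cultured bone marrow-derived macrophages of mice. The members were the rows of the deposited expression table that carry these 5 gene names, 5 of 43629 gene identifiers. All 5 rows held reads, and 4 of them passed the filter on low values (3 or more libraries at 1 or above), among 18637 genes tested; Cited1 did not. RNA from C57BL/6 mice, age postnatal week 10, had been sequenced from wild-type (WT) cells and from cells labelled CITED2-KO (KO). Cells of each genotype were left as controls (Ctl) or treated with LPS (a bacterial lipopolysaccharide), IFNg (interferon gamma) or IL4 (interleukin 4), with 3 libraries in each of the 8 groups. The labels give neither the way the gene was deleted, nor the doses and times, nor whether replicates are separate animals, so p-values measure the spread between these libraries, which may be technical. In these bulk samples a change in the share of a kind of cell and a change of RNA per cell cannot be told apart.

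CITED2 is a small protein that does not bind DNA. Its carboxy-terminal region binds the TAZ1 (CH1) domain of CBP and p300, which is also the docking site of HIF1A and several other transcription factors, so that CITED2 can displace some factors and recruit the coactivators to others. CBP and p300 are large, closely related lysine acetyltransferases that acetylate histones and transcription factors. In macrophages CITED2 is known as a restraint on inflammatory and hypoxia-related transcription.

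The 3 CITED proteins share the part that docks on TAZ1, and it is shown because it is what makes Cited1 and Cited4 paralogs of interest when Cited2 is lost. The stretch of 34 codons most alike in the 3 genes, from the GENCODE M21 transcripts of mouse GRCm38 and written 5′ to 3′, has codons for the same residue in all 3 proteins in capitals:
Cited2: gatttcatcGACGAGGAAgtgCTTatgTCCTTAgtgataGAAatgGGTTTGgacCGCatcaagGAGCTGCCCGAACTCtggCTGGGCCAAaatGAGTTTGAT
Cited1: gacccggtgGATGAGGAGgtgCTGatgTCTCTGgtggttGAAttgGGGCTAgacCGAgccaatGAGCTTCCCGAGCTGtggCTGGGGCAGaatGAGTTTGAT
Cited4: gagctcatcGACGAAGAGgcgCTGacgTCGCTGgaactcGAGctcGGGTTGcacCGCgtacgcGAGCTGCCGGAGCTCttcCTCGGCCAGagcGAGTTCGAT
They are codons 220 to 253 of 269 in Cited2, 161 to 194 of 203 in Cited1 and 133 to 166 of 182 in Cited4. In 21 of the 34 codons the residue is the same in all 3. Cited2 and Cited1 share 28 of 34 residues there, and Cited2 and Cited4 share 22. Over the whole proteins identity is lower, at 36.6% of aligned residues for Cited2 with Cited1 and 41.7% for Cited2 with Cited4. CBP (2441 residues) and p300 (2412 residues) share 65.8% of aligned residues.

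Cited2 lies on chromosome 10 at 17723218-17725674 on the plus strand of GRCm38, Cited1 on X at 102247381-102252181 (minus), Cited4 on 4 at 120666572-120667820 (plus), Crebbp on 16 at 4081328-4213997 (minus) and Ep300 on 15 at 81585351-81652077 (plus). All are annotated as protein-coding. In GENCODE M21, no other annotated gene has an exon over theirs except Gm23880, on the same strand as Ep300. The upstream sequence of Cited2 is shown because its level differed between treatments in WT cells on the authors' scaling. It is taken from RefSeq (GRCm38.p6, chr10:17722978-17723217, plus strand), ends at the base before the annotated gene start, and has the motif matches in capitals:
Cited2: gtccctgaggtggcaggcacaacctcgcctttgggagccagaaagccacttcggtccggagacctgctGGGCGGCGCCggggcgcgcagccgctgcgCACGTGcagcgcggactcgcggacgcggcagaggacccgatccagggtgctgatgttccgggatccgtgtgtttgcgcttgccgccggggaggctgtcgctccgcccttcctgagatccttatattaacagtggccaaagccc
Both strands of the RefSeq windows of 250 bases before to 50 bases after each start were searched. The Cited2 window held the hypoxia response core ACGTG, read on both strands within CACGTG that begins 153 bases before the RefSeq start site, and the kappa B pattern GGGNNNNNCC, 182 bases before it. Of 32851 mouse windows of the same length, 19.6% held ACGTG and 50.8% held GGGNNNNNCC. The Cited2 window held no cyclic AMP response element TGACGTCA (in 1.79% of windows), no shorter core TGACG (20.8%), no GAS element TTCNNNGAA (8.30%) and no STAT6 motif, which has 4 bases between TTC and GAA (6.95%). Of these motifs the Crebbp window held GGGNNNNNCC once and the Ep300 window held none, which says only that the letters are not in these windows.

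The table holds normalised read counts, that is whole reads multiplied by 1 factor per library. The reads behind them ranged from 1478507 (KO LPS replicate 1) to 73409343 per library, with a median of 29551522.5. One read was therefore worth 23.6 normalised reads in KO LPS replicate 1 and 0.355 in the deepest library, WT IFNg replicate 3. The scaled values did not sum to the same total. In WT libraries they summed to 1.90e+07 to 1.92e+07 in controls, 3.18e+07 to 3.33e+07 with LPS and 2.55e+07 to 2.62e+07 with IFNg. In KO libraries these sums were 1.99e+07 to 2.00e+07, 3.49e+07 to 3.75e+07 and 2.69e+07 to 2.72e+07. With IL4 they were 1.93e+07 to 1.94e+07 in WT and 2.03e+07 to 2.07e+07 in KO libraries. No fit was run on shares of all reads. Of 8 macrophage markers, 7 were in the table, and their summed level was 102397 to 127358 in WT and 99015.6 to 134651 in KO libraries. Summed fibroblast markers (5 of 5) were at 288.2 to 505.6 in WT and 233.2 to 494.4 in KO libraries, and neutrophil markers (7 of 7) at 437.2 to 1938.6 and 246.6 to 2268. The neutrophil gene Ly6g and all 3 erythroid markers stayed below 1 in every library, and no B, T and NK or mast cell marker had a mean of 10. Dendritic cell markers summed to 0 to 150.6 in WT and 0 to 56.2 in KO libraries; the part of any of these cells in the results was not tested.

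Cited2 was well expressed in WT macrophages and nearly absent from every KO library. Among WT groups it was highest after LPS and lowest after IL4 on the authors' scaling. The normalised read counts of WT control cells were 2298, 2179 and 2144. They were 3139, 3468 and 4174 with LPS, 2308, 2623 and 2383 with IFNg, and 1117, 1207 and 1120 with IL4. No WT group overlapped its neighbour in this order, but the gap between IFNg and control was small, 2308 against 2298 at the nearest libraries. Means were 3593 ± 529 (SD, n = 3) with LPS, 2438 ± 165 with IFNg, 2207 ± 80.5 in controls and 1148 ± 51.0 with IL4. As a share of all reads in a library, LPS and control libraries overlapped, IFNg was below controls and IL4 stayed lowest. WT LPS replicate 1 had 770 Cited2 reads of 7921412, and WT control replicate 3 had 878 of 7818719. By this share LPS replicate 3, with 3507 of 27953839 reads, was above all WT controls.

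**Figure D1:**
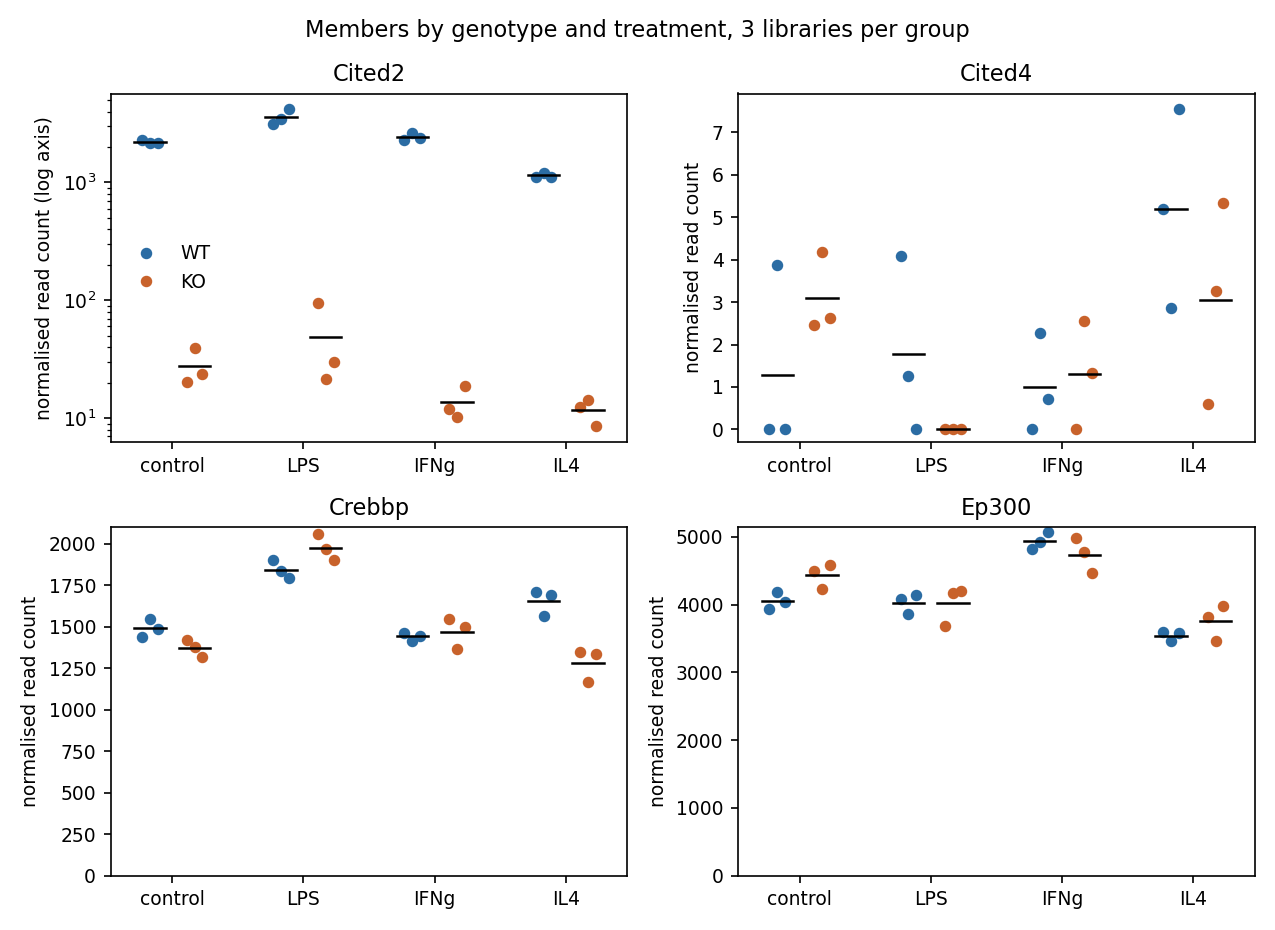
Normalised read counts of Cited2 (log axis), Cited4, Crebbp and Ep300 in control, LPS, IFNg and IL4 cells; each point is 1 library (blue WT, orange KO, 3 per group) and each bar the group mean. Cited2 is lower in all 12 KO than in all 12 WT libraries, Cited4 stays at or below 7.54, and Crebbp after IL4 is at 1567 to 1707 in WT and 1169 to 1345 in KO.

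In the KO libraries Cited2 read between 8.52 and 94.5. The highest value, in KO LPS replicate 1, rested on 4 reads of the shallowest library. All 12 KO libraries together held 249 Cited2 reads, against 37393 in the 12 WT libraries. The KO mean was 1.26% of WT in controls, 1.35% with LPS, 0.558% with IFNg and 1.02% with IL4. KO and WT ranges did not overlap under any treatment, which matches the labels of all 24 libraries. Averaged over the treatments, the log2 difference KO against WT was -6.68 ± 0.17 (SE; limma, adjusted p = 2.8e-19 over all genes tested), where 22.3% of all genes were called at an adjusted p below 0.05. Where within the gene the remaining reads fall was not analysed here.

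The fitted log2 difference of Cited2 with LPS in WT cells was 0.69 ± 0.34, which did not pass the test in the fit of all 24 libraries (limma, adjusted p = 0.088; 53.3% of genes were called). That fit takes 1 spread per gene from all 8 groups, and for Cited2 it included the KO groups with 4 to 38 reads per library. In a fit of the 12 WT libraries alone, added after seeing the data, the difference was the same with an SE of 0.087 and an adjusted p of 1.3e-05 (limma). With recovered reads in edgeR it was 0.69 with an adjusted p of 5.5e-09. These fits compare scaled reads, not shares of all reads, on which LPS and control libraries overlapped. With IL4 Cited2 changed by a log2 difference of -0.94 ± 0.34 (limma, adjusted p = 0.05, just under the threshold; 20.1% of genes called). Any single library left out of the groups compared ended this call, with adjusted p from 0.095 to 0.12, whereas the fit of the 12 WT libraries gave an adjusted p of 3.5e-06 (limma). IFNg did not change Cited2 by the test, with a difference of 0.14 (95% interval -0.55 to 0.84; limma, adjusted p = 0.79, and 0.2 in the 12 WT libraries; 45.1% of genes called).

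Within the KO groups the residual Cited2 signal was 27 to 38 reads per library in controls, 4 to 35 with LPS, 7 to 16 with IFNg and 8 to 22 with IL4. Against KO controls it was lower with IFNg by a log2 difference of -0.97 (limma, adjusted p = 0.021; 46% of genes called) and with IL4 by -1.15 (adjusted p = 0.013; 23.2% called). Without KO control replicate 2, the highest of its group, these became -0.69 (adjusted p = 0.14) and -0.87 (adjusted p = 0.11). The IFNg difference was called in 11 of 16 alternative analyses and the IL4 difference in 13 of 16. With median centring the IFNg difference was -0.64 and not called (limma, adjusted p = 0.11). The LPS difference, 0.55 as reported (limma, adjusted p = 0.17), became 0.97 with centring (adjusted p = 0.012).

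Neither paralog reached the level of Cited2. Cited1 had 1 read in all 24 libraries, in WT LPS replicate 3, and was not tested. Cited4 had 64 reads over 16 of the libraries, 37 in WT and 27 in KO cells, and its values ran from 0 to 7.54. Per kilobase of exon the WT control means were 898 for Cited2 and 1.03 for Cited4. No difference in Cited4 between genotypes was called: the averaged log2 difference KO against WT was -0.12 (95% interval -0.82 to 0.58; limma, adjusted p = 0.86).

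Among treatments, Cited4 was highest in WT cells with IL4, at 5.19, 2.86 and 7.54, against 0, 3.87 and 0 in WT controls. The groups overlapped and the fitted difference of 1.80 did not pass the test (limma, adjusted p = 0.067). In KO cells Cited4 stood at 2.45, 4.18 and 2.63 in controls and at 0 in all 3 LPS libraries. The pooled control level was 2.43-fold a floor of 3 reads over the LPS group, a ratio without the counting error of the controls. In KO LPS replicate 1 a single read is worth 23.6, so its 0 cannot show a level below these controls. The difference passed the test (limma, adjusted p = 0.014, with 57% of genes called). It did not pass with DESeq2 (adjusted p = 0.13) or with median centring (log2 difference -1.59, limma, adjusted p = 0.05 after rounding). It rests on 11 reads in the KO controls.

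Crebbp and Ep300 were read in every library, with 45646 and 126539 reads in all. Crebbp, the gene of CBP, ran from 1169 to 2055 in normalised read counts and Ep300 from 3463 to 5065. Per kilobase of exon, WT controls had 110 for Crebbp and 284 for Ep300. On the authors' scaling, WT cells had more Crebbp with LPS, more Ep300 with IFNg and less Ep300 with IL4 by the test. As a share of all reads in a library, Crebbp with LPS and Ep300 with IFNg were instead below WT controls, without overlap. With each library centred on its median, both genes were higher with LPS (log2 differences of 0.73 for Crebbp and 0.41 for Ep300) and with IFNg (0.27 and 0.60), and the fall of Ep300 with IL4 was not called (limma, adjusted p = 0.12). Across the 24 libraries, which share the scaling of the table and its 8 groups, Pearson's r between Crebbp and Ep300 was -0.22, given as a description.

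Crebbp in KO cells was lower than in WT cells after IL4. WT IL4 libraries read 1707, 1567 and 1689, and KO IL4 libraries 1345, 1169 and 1337. The KO mean was 77.6% of the WT mean and the ranges did not overlap. The log2 difference was -0.37 ± 0.06 (limma, adjusted p = 0.00012), and it was called in 16 of 16 alternative analyses; 9.29% of all genes were called in this comparison. Apart from Cited2, no other member was called there.

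Under the other treatments the genotypes differed less. In controls WT cells read 1436, 1546 and 1487 and KO cells 1420, 1377 and 1318, all 3 KO libraries below WT (log2 difference -0.12; limma, adjusted p = 0.37; 7.16% of genes called). With LPS all 3 KO libraries (2055, 1965 and 1900) were above WT (1900, 1835 and 1791) on the authors' scaling, by a margin of less than 1 at the nearest pair. As a share of all reads in a library these groups overlapped. KO LPS replicate 2, with 3195 Crebbp reads of 60993964, was below every WT LPS library, the lowest having 1505 of 27953839. The log2 difference of the scaled values was 0.10 (limma, adjusted p = 0.26, with 22.2% of genes called), and the 2055 of KO LPS replicate 1 rests on 87 reads. How many of all genes have ranges apart in this way was not counted, so such separations are descriptions, here and for Ep300. With IFNg the groups overlapped (1464, 1415 and 1444 in WT against 1543, 1366 and 1499 in KO; adjusted p = 0.91 by limma; 9.05% called). The average over treatments was -0.09 (limma, adjusted p = 0.033), a value that passed the test in 21 of 33 alternatives and was -0.03 (adjusted p = 0.65) with each library centred on its median.

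Whether the Crebbp response to IL4 differed between genotypes was tested directly. It went from 1490 ± 55.4 to 1654 ± 76.5 in WT cells (log2 difference 0.15; limma, adjusted p = 0.09) and from 1372 ± 51.3 to 1283 ± 99.1 in KO cells (-0.10; adjusted p = 0.3). The difference of the responses was -0.25 ± 0.09 and did not pass the test (limma, adjusted p = 0.14; 3.61% of genes called); its adjusted p was 0.047 with DESeq2 and 0.015 with limma library weights. None of the 4 members tested was called for a difference in response to IL4, to LPS (8.79% of genes called) or to IFNg (2.5% called). At an unadjusted p under 0.05, limma had Crebbp and Cited4 for LPS, Cited2 and Ep300 for IFNg, and Crebbp and Cited4 for IL4, and edgeR called Cited2 for IFNg (adjusted p = 0.027). With library weights, limma called Ep300 for IFNg (adjusted p = 0.016).

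LPS was followed, on the authors' scaling, by higher Crebbp in both genotypes. The log2 difference from controls was 0.31 ± 0.06 in WT (limma, adjusted p = 0.00013) and 0.52 ± 0.06 in KO cells (adjusted p = 5.1e-08), with no overlap with controls in either genotype. IFNg left WT Crebbp near controls, at -0.05 (limma, adjusted p = 0.58), but this turned to 0.27 (adjusted p = 0.0013) with median centring. In KO cells the IFNg difference was 0.10 (limma, adjusted p = 0.21), and 0.43 (adjusted p = 6.5e-06) with centring. Centring each library on the median of its genes shifted all LPS differences by 0.42 and all IFNg differences by 0.32 in WT cells, relative to the authors' scaling. The summed values of the libraries rose more with LPS than Crebbp did. As a share of all reads, Crebbp was therefore lower with LPS than in controls in both genotypes, without overlap. Directions of changes as small as those of Crebbp and Ep300 under LPS and IFNg thus depend on the scaling.

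**Figure D2:**
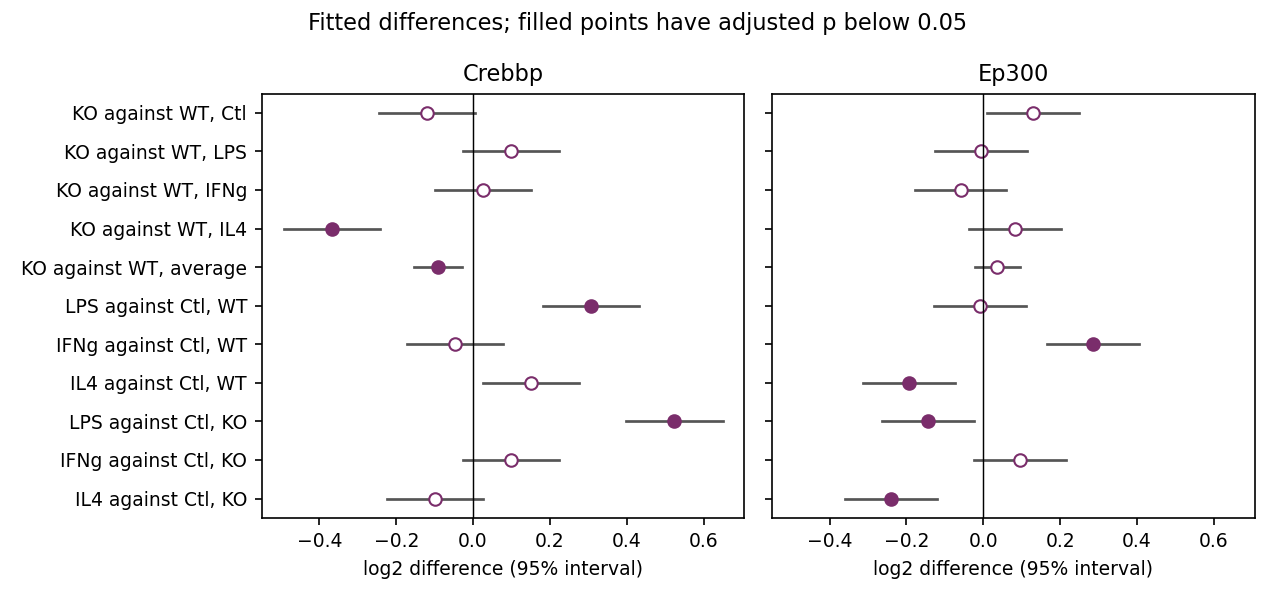
Fitted log2 differences of Crebbp (left) and Ep300 (right) with 95% intervals for the 11 comparisons of genotype and of treatment; filled points passed an adjusted p of 0.05. Crebbp is lower in KO than in WT cells after IL4 (-0.37), while the Ep300 interval for the same comparison runs from -0.04 to 0.20.

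Ep300, the gene of p300, was called between treatments and in no comparison of the genotypes. With IFNg, WT libraries read 4816, 4920 and 5065, all above the WT controls at 3935, 4183 and 4035 (log2 difference 0.28 ± 0.06; limma, adjusted p = 0.00021). In KO cells the step was 0.10 (limma, adjusted p = 0.2), from controls at 4496, 4229 and 4579 to 4976, 4780 and 4461, and these groups overlapped. With median centring the KO step was 0.42 and was called (limma, adjusted p = 5.5e-05). The difference between the KO and WT responses to IFNg was not called (limma, adjusted p = 0.39). With IL4, WT libraries read 3593, 3463 and 3575, all below their controls (-0.19; limma, adjusted p = 0.017), and the call was lost in edgeR (adjusted p = 0.058) and with median centring (0.12). KO IL4 libraries read 3819, 3468 and 3981, also all below their controls (-0.24; limma, adjusted p = 0.0026, called in 16 of 16 alternatives).

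With LPS, WT Ep300 was at 4080, 3868 and 4137, overlapping its controls (-0.01; limma, adjusted p = 0.94), and with median centring the sign turned, to 0.41 (adjusted p = 6.5e-05). In KO cells the LPS libraries read 3686, 4170 and 4203, below their controls (log2 difference -0.14, limma, adjusted p = 0.037). Without the lowest of them, KO LPS replicate 1, the call was lost (-0.08, limma, adjusted p = 0.25). With median centring the difference turned to 0.27 (limma, adjusted p = 0.0041). The comparison was called in 9 of 16 alternatives, and these include the centred fit with the opposite sign. Between genotypes Ep300 was not called under any treatment. The nearest was in controls, where on the authors' scaling all 3 KO libraries were above WT (log2 difference 0.13, 95% interval 0.01 to 0.25, limma, adjusted p = 0.26, and 0.029 with library weights). As a share of all reads in a library these groups overlapped. KO control replicate 2 had 4045 Ep300 reads of 19041270, and WT control replicate 2 had 6486 of 29745002.

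The ratio of Crebbp to Ep300 within a library does not depend on how libraries are scaled to each other. Per kilobase of exon, Crebbp was 38.5, 39.0 and 38.9% of Ep300 in WT controls and 33.3, 34.3 and 30.3% in KO controls. With IL4 it was 50.1, 47.7 and 49.8% in WT and 37.1, 35.5 and 35.4% in KO cells. In both settings every KO library was below every WT library, with means of 38.8% ± 0.27 (SD, n = 3) against 32.7% ± 2.07, and 49.2% ± 1.31 against 36.0% ± 0.95. An exact permutation test of 3 against 3 gave p = 0.1 (two-sided) for each, the smallest it can give.

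Under LPS and IFNg the genotypes overlapped in this ratio. With LPS it was 49.1, 50.0 and 45.6% in WT, and 58.8, 49.7 and 47.7% in KO cells, the highest of these from 87 Crebbp and 156 Ep300 reads in KO LPS replicate 1 (exact permutation test, two-sided p = 0.5). With IFNg it was 32.0, 30.3 and 30.1% in WT and 32.7, 30.1 and 35.4% in KO cells (p = 0.3 by the same exact test). WT cells thus had their highest ratios with LPS and IL4 and their lowest with IFNg, and KO cells had a raised ratio with LPS and, by a smaller step, with IL4, where 35.4 to 37.1% stood above the KO controls at 30.3 to 34.3%.

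**Figure D3:**
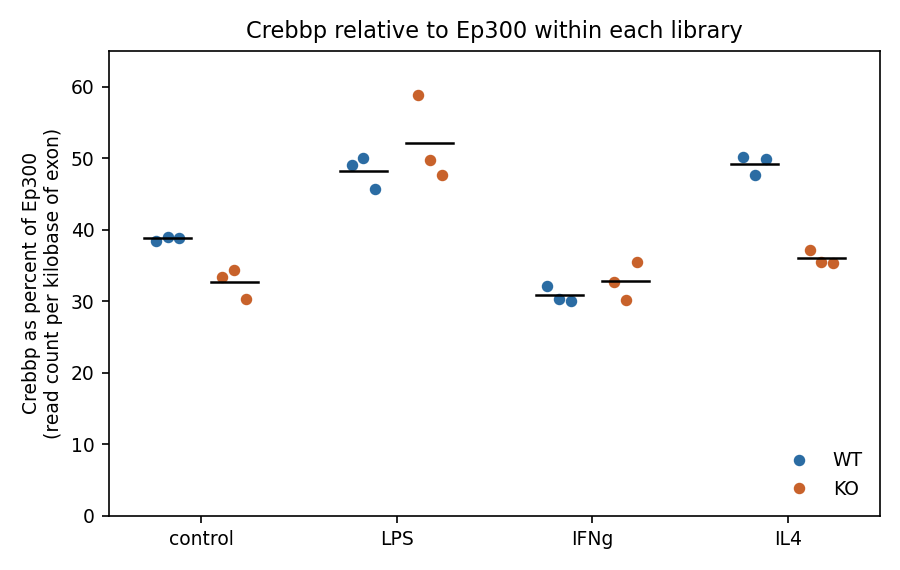
Crebbp as a percent of Ep300, both as read count per kilobase of exon, in each of 24 libraries (blue WT, orange KO; bars are means of 3). The genotypes are apart in control cells (38.8 against 32.7%) and after IL4 (49.2 against 36.0%) and overlap with LPS and IFNg.

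Set against both coactivator genes, Cited2 per kilobase was 228% of Crebbp and Ep300 together in WT controls, 350% with LPS, 220% with IFNg and 126% with IL4. In KO cells the group means of this ratio were 4.73% or lower. These ratios use the union of annotated exons; with the longest transcript of each gene they were 163, 252, 156 and 91.1% in WT cells, in the same order. They are ratios of RNA and say nothing of protein.

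Genes that work with the members were taken as 5 lists. Counts are of genes called by limma at an adjusted p below 0.05 in the averaged comparison of KO with WT, in which 22.3% of all genes were called. Of 20 factors that bind CITED2 or the TAZ1 domain, 14 were tested, 6 were higher in KO cells and 1, Arnt, was lower, with a median log2 difference of 0.15 against -0.03 over all genes. With median centring, which moved this comparison by 0.065 over all genes, the counts were 7 and 0. The 6 not tested, Tfap2b, Tfap2c, Ppara, Hnf4a, Isl1 and Wt1, had 0 to 4 reads each in all libraries. Epas1, which encodes the hypoxia-inducible factor HIF2A, was higher by 0.44 ± 0.04 (limma, adjusted p = 8.3e-09), with means of 2169 in KO and 1449 in WT controls and of 684 and 452 with LPS. Lhx2, a LIM homeobox gene whose protein is bound by CITED2, was higher by 1.08 ± 0.14 (limma, adjusted p = 3.2e-06); it was near 0 in controls (0.97 in WT, 3.15 in KO) and at 541 in WT and 1165 in KO cells with LPS. Hif1a itself, the best known competitor of CITED2 for TAZ1, was at 3007 in WT and 2789 in KO controls and at 15601 and 16031 with LPS.

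Stat2, a signal transducer of type I interferon that docks on TAZ1, was higher by 0.29 ± 0.03 on average (limma, adjusted p = 7.7e-08). After IL4 it was at 3873 ± 150 in KO against 1841 ± 33.3 in WT cells. On the authors' scaling KO libraries were also above WT without overlap with LPS (means of 25764 and 23975) and with IFNg (10920 and 9919). The scaled values of all genes, however, summed to 3.49e+07 to 3.75e+07 in KO and 3.18e+07 to 3.33e+07 in WT LPS libraries. Stat2 as a share of all reads was not compared. How many of all genes have ranges apart was not counted, so such separations are descriptions, here and for Atf4. In controls KO cells were at 1168 and WT cells at 1300, and these overlapped. IL4 thus raised Stat2 by 0.51 in WT and 1.73 in KO cells, and the difference of 1.22 between these responses passed the test (limma, adjusted p = 7e-10).

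**Figure D4:**
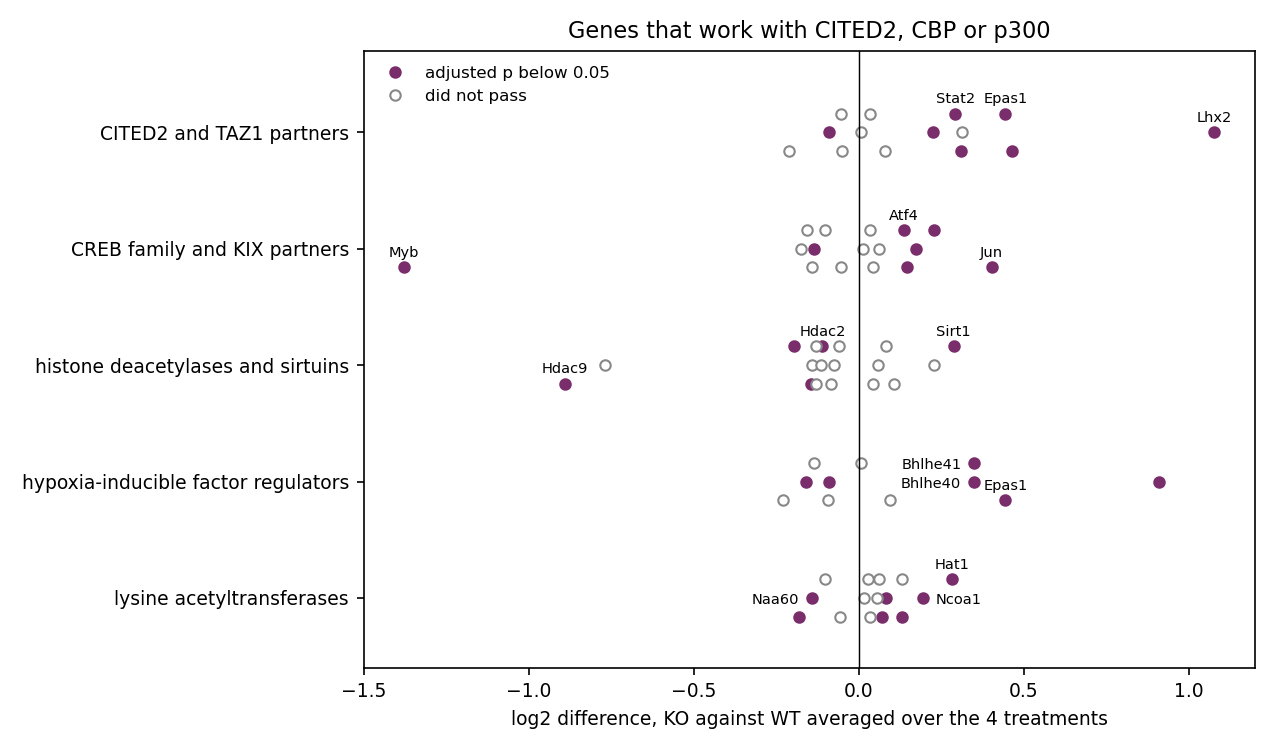
Log2 difference KO against WT, averaged over the 4 treatments, for the genes tested in each of 5 lists (1 point per gene, filled where the adjusted p was below 0.05; a gene in 2 lists is drawn in both). Lhx2, Epas1 and Stat2 lie to the right, Hdac9 at -0.89 and Myb at -1.38 to the left.

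Of 16 genes listed as CREB family or as partners of the KIX domain of CBP or p300, 5 were higher and 2 lower in KO cells (6 and 1 with median centring), with a median of 0.02. Binding of each listed factor to KIX was not checked, Cebpb among them. Jun, a subunit of AP-1, was higher by 0.40 ± 0.05 (limma, adjusted p = 3.4e-06), with 2320 in KO and 1657 in WT controls. Atf4, the transcription factor of the integrated stress response, was higher by 0.14 ± 0.02 on average (limma, adjusted p = 4.8e-06). In controls it stood the other way without overlap, at 2972 in KO and 3164 in WT cells, against 10517 and 9366 with LPS, 11200 and 9304 with IFNg, and 4055 and 3522 with IL4. Myb was lower by a log2 difference of -1.38 (limma, adjusted p = 0.0024), at low levels: its group means ran from 2.98 to 23.2 in WT and from 1.54 to 5.08 in KO cells.

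Of 15 other lysine acetyltransferase genes, 5 were higher and 2 lower in KO cells (9 and 0 with median centring), with a median of 0.06. Hat1, a histone H4 acetyltransferase, was higher by 0.28 ± 0.04 (limma, adjusted p = 1.7e-05) and Ncoa1, a steroid receptor coactivator that binds CBP and p300, by 0.19 ± 0.03 (adjusted p = 1.2e-05). Naa60 was lower, at -0.14 (limma, adjusted p = 0.008). Of the 18 histone deacetylase and sirtuin genes, which encode enzymes of the opposite activity, 1 was higher and 4 were lower (2 and 1 with median centring), with a median of -0.10. Hdac9, a class IIa deacetylase, was lower by a log2 difference of -0.89 ± 0.09 (limma, adjusted p = 2.2e-08), from 204 to 98.6 in controls and from 83.9 to 33.2 with IL4. Sirt1 was the 1 that was higher, by 0.29 ± 0.05 (limma, adjusted p = 6.2e-05). Its KO and WT means were 3259 ± 241 and 1731 ± 288 with LPS but 1357 and 1333 in controls. Hdac2 was lower by a smaller step, -0.11 (limma, adjusted p = 0.032).

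Of 12 regulators and partners of hypoxia-inducible factors, 11 were tested, 4 were higher and 2 lower (5 and 1 with median centring), with a median of 0.01; Epas1, Hif1a and Arnt are also in the first list. Bhlhe40 and Bhlhe41, a pair of transcriptional repressors known as hypoxia-inducible, were both higher in KO cells, by 0.35 ± 0.02 and 0.35 ± 0.03 (limma, adjusted p = 5.7e-11 and 1.2e-10). Bhlhe40 was at 3887 in KO against 2796 in WT controls. Bhlhe41 was at 5736 against 4680 in controls but at 2725 in KO against 3520 in WT cells with LPS.

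The same lists were read in WT cells for the treatments, against backgrounds of 53.3% of genes called with LPS, 45.1% with IFNg and 20.1% with IL4. Among tested CITED2 and TAZ1 partners, 6 rose and 6 fell with LPS, 7 rose and 6 fell with IFNg, and 5 rose and 3 fell with IL4; median centring gave 7 and 5, 7 and 5, and 5 and 2. Stat2 rose with LPS by 4.21 ± 0.06 (limma, adjusted p = 1.9e-25) and Hif1a by 2.37, while Foxo3, a forkhead factor, fell by 3.59, a log2 difference of -3.59 (adjusted p = 7.4e-24), and Pparg, a nuclear receptor of lipid metabolism, fell by 3.63. Epas1 fell with IFNg, by 3.14 on the log2 scale (limma, adjusted p = 2.8e-20), as Hif1a rose by 2.67. Smad3, a mediator of TGF-beta signals, fell by 1.02 with IL4 (limma, adjusted p = 4.2e-06).

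Of the CREB and KIX genes, 9 rose and 4 fell with LPS, 6 rose and 4 fell with IFNg, and 3 rose and 2 fell with IL4; median centring gave 11 and 3, 9 and 3, and 2 and 2. Cebpb, a factor of macrophage activation, rose by 3.54 with LPS and 0.95 with IL4, and Atf4 by 1.57 with LPS. Of the acetyltransferases, 7 rose and 4 fell with LPS, 7 rose and 4 fell with IFNg, and 1 rose and 5 fell with IL4; with median centring these were 11 and 2, 11 and 3, and 1 and 3. Kat2b (PCAF) rose by 1.59 with LPS and Kat6a by 1.37; with IL4, Ncoa1 fell by 0.52 and Hat1 rose by 0.55. Of the deacetylases and sirtuins, 5 rose and 10 fell with LPS, 3 rose and 8 fell with IFNg, and 1 rose and 2 fell with IL4; median centring gave 8 and 8 with LPS, 6 and 4 with IFNg. Hdac5 fell by 4.07 with LPS and fell by 3.36 with IFNg, whereas Hdac1 rose by 1.63 and 1.05; Hdac9 fell by 1.28 with IL4. Of the hypoxia-inducible factor genes, 3 rose and 6 fell with LPS (5 and 2 with median centring), 3 rose and 5 fell with IFNg, and 3 rose and 4 fell with IL4, among them Bhlhe40, which rose by 1.24 with IL4 (limma, adjusted p = 6.5e-16).

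The genes with the pattern most like that of Cited2 in WT cells were sought by Pearson's r of the log2 values over the 12 WT libraries, among 10967 genes with a mean of at least 10. They were Evi2a (0.993), Alcam (0.988), S100a11 (0.979), Iqgap1 (0.978) and Zwint (0.978). Like Cited2, each had its highest mean with LPS and its lowest with IL4 on the authors' scaling, which all these genes share. Alcam, a cell adhesion molecule, went from 16620 in controls to 26470 with LPS and 7027 with IL4. Over all 24 libraries the genes most like Crebbp were Dab2 (0.912), Rhbdf1, Plec, Spp1 and Cul4a (0.873). Those most like Ep300 were Usp6nl (0.925), Itga8, Emb, Srrm2 and Ralgapb (0.878). The points of these correlations share 4 treatments in WT cells, or 8 groups, and are given as descriptions.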

How the data were processed

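Polyadenylation or strand selection of the libraries is not given in the sources used here. The deposited table holds a signal per gene and library, read counts that the authors scaled by 1 factor per library: dividing by the smallest step gave whole reads for 100% of values within 0.05 reads. Per the submitters' processing notes, TopHat2 2.2.1, Cufflinks 2.2.1 and Cuffdiff were used with mm10 (GRCm38); the counting tool and its handling of strand are not given in the sources used here. Every column of the table was mapped to a sample.

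The test was limma 3.58.1 (R 4.3.3) on log2(value + 1), with 1 mean per group over all 24 libraries and a trended prior (16 residual degrees of freedom), for the 18637 genes at 1 or above in 3 or more libraries. Fold changes are on that scale, which understates those of low genes. P-values were adjusted by Benjamini-Hochberg over all genes tested and called below 0.05. edgeR 4.0.16 and DESeq2 1.42.0 ran on the recovered reads as alternatives, beside pseudocounts of 0.5 and 5, other filters, median centring, library weights, fewer groups, the replicate number as a block and each library left out. The fits were tested on simulated data only for the averaged genotype comparison, with changes larger than those reported for Crebbp and Ep300 on the authors' scaling. The simulation therefore does not cover such small changes, single treatments or genes as low as Cited4. Lengths and coding sequences came from GENCODE M21, upstream sequences from RefSeq (all 5 members matched). Levels per kilobase divide by the union of annotated exons. From each list the text names up to 3 called genes of smallest p in the averaged genotype comparison and in each WT treatment comparison, and the 5 genes most like each member; other genes named in the lists' first counts (Arnt, the untested ones) and the levels of Hif1a were chosen after their values were seen. The members and lists were chosen with earlier results of these data known. Floors are 3 reads and cover counting error only.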

Additional observations from a re-analysis of the deposited data

Results flagged for a closer look

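No difference of response between genotypes was called for the members. Among the list genes picked by the naming rule, which was based partly on their genotype and treatment p-values, 21 of 96 tests (32 genes, 3 treatments) of a difference between the responses of KO and of WT cells were called (limma interaction, adjusted over all genes). These were 10 of 32 with LPS, where 8.79% of all genes were called, 5 of 32 with IFNg (2.5%) and 6 of 32 with IL4 (3.61%). Each value is the log2 response in KO minus that in WT cells. The 3 tests of a gene share the same control libraries, so the 21 calls are not independent. A difference between the genotypes in controls enters each of these tests. With IL4, Stat2 differed by 1.22 (0.51 in WT, 1.73 in KO, limma adjusted p = 7e-10), Atf4 by 0.29, Bhlhe41 by 0.27 (edgeR adjusted p = 0.087) and Tcf4 by 0.38. Bhlhe40 differed by -0.39 (1.24 in WT, 0.85 in KO) and Epas1 by -0.51 (0.27 in WT, -0.24 in KO, limma adjusted p = 0.01). Epas1 was at 1449 in WT and 2169 in KO controls, and at 1736 and 1835 with IL4. Bhlhe40 was at 2796 and 3887 in controls, and at 6600 and 7006 with IL4. Stat2 was instead at 1300 and 1168 in controls, and at 1841 and 3873 with IL4.

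With LPS, Crem differed by 0.92 (1.06 in WT, 1.98 in KO), Sirt1 by 0.90 (0.37 in WT, 1.27 in KO), Smad3 by 0.75, Ncoa3 by 0.74, Tcf4 by 0.66, Kat6a by 0.27 (edgeR adjusted p = 0.093) and Atf4 by 0.26 (edgeR adjusted p = 0.066). Bhlhe40 differed by -0.30, Bhlhe41 by -0.66 (-0.41 in WT, -1.07 in KO) and Cebpb by -0.67 (3.54 in WT, 2.87 in KO). All 10 kept an adjusted p of 0.03 or lower without KO LPS replicate 1.

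With IFNg, Smad3 differed by 0.94 (-2.17 in WT, -1.23 in KO), Bhlhe41 by 0.62 (-1.65 in WT, -1.04 in KO), Tcf4 by 0.42, Atf4 by 0.36 and Ncoa3 by 0.28 (edgeR adjusted p = 0.11). Mean Tcf4 was at 3026 in WT and 2142 in KO controls, and at 2723 and 2580 with IFNg. It was at 1757 and 1616 with IL4, and at 10330 and 11523 with LPS.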

How the results depend on the processing

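Cited2 stayed far lower in KO cells in all alternatives run. Of 1034 repeats of the members' 56 comparisons, 965 kept direction and call, 42 lost the call, 24 gained it and 3 reversed; the cause was not tested. With median centring, Crebbp with IFNg in WT turned to 0.2731, Ep300 with LPS to 0.4115 in WT and 0.2729 in KO cells, Cited2 with LPS in WT became 1.113 (called), and the calls of averaged Crebbp (-0.02553) and of Ep300 with IL4 in WT (-0.1835) were lost. In WT cells Cited2 with IL4 lost its call with a pseudocount of 0.5 (-0.9433), with no filter (-0.943) and with the replicate block (-0.943). Cited2 with LPS gained a call in edgeR (0.6883), DESeq2 (0.7038), with library weights (0.6648), in only the groups compared (0.6933) and in the 12 WT libraries (0.6933, chosen after seeing the data). Crebbp with IL4 gained one in edgeR (0.1773), DESeq2 (0.1504), library weights (0.1433) and the 12 WT libraries (0.1505), and Cited4 with IL4 at a pseudocount of 5 (0.7263) and with weights (1.432). In edgeR, averaged Crebbp (-0.08389) and Ep300 with IL4 (-0.1647) were not called. Leaving out 1 library gave ranges of -0.9794 to -0.9136 for Cited2 with IL4, 1.416 to 2.557 for Cited4 with IL4, -0.1001 to -0.07398 for averaged Crebbp and -0.2136 to -0.1696 for Ep300 with IL4.

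List counts stayed within 1.5 times in 405 of 460 repeats; in edgeR, 0 TAZ1 partners and 5 CREB and KIX genes were lower in KO cells on average, and with IL4 in WT 2 acetyltransferases were higher and 6 deacetylases lower. Without KO LPS replicate 1, 4 CREB and KIX genes were lower on average. With median centring, chosen for the lists after seeing the data, genes lower in KO cells on average were 0 TAZ1 partners, 1 CREB and KIX gene, 0 acetyltransferases (9 higher), 1 deacetylase (2 higher) and 1 hypoxia-inducible factor gene; in WT cells acetyltransferases were 11 higher and 2 lower with LPS, 11 higher with IFNg and 3 lower with IL4, deacetylases 8 higher with LPS and 6 higher and 4 lower with IFNg, and hypoxia-inducible factor genes 5 higher and 2 lower with LPS. With the longest transcript, Crebbp as a percent of Ep300 was 32.51 in WT and 27.39 in KO controls, and 41.26 and 30.2 with IL4.

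Same-numbered libraries of different groups did not deviate together more than others (correlations -0.256 to 0.185, over 0.1 in 6 of 84 pairs). Pairs with different numbers ran from -0.254 to 0.292, over 0.1 in 22 of 168 pairs. The numbers were therefore taken as names only. Whether libraries of different groups share structure of another kind was not tested. The replicate block changed no call of the members other than that of Cited2 with IL4. Few reads lay behind Cited1 and Cited4, and Cited2 within KO cells.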
